A study of Mus musculus with 20 samples.

Results

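The genes described here encode the nuclear subunits of respiratory chain complexes I, II and III, and they were followed in the nontumorous mammary glands of 20 transgenic mice. They were chosen by name: a platform symbol of Ndufa, Ndufb, Ndufc, Ndufs or Ndufv followed by a number, Sdha to Sdhd, any symbol that starts with Uqcr, and Cyc1. The rule found 48 genes among the 18194 with a probe set of a single symbol, of which 35 bear a complex I name, 4 a complex II name and 9 a complex III name. Where a gene had several probe sets, the one that read highest on average was used. The 3 genes used to mark the group, Ndufs1, Sdha and Uqcrc1, were above the median of all array values (6.85) on every array, as were 47 of the 48 genes. The exception was Ndufb4, whose only probe set with a single symbol had a mean log2 value of 4.97 and was below that level on all arrays, so that it was not tested.

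All animals were FVB/N females heterozygous for the NRL-TGFa transgene (line 1372-1 TgN(Nrl-tgfalpha)29EPS), in which a neu-related lipocalin promoter drives transforming growth factor alpha in the mammary epithelium. The placebo animals carried the transgene too, and no gland without it was compared. At 8.5 weeks of age each animal received an implant under the skin with 5 mg of tamoxifen, an oestrogen receptor modulator, or with carrier alone. A single number 4 gland was taken at 20.5 to 21 weeks, 4 weeks after treatment ended, and the animals were then watched for tumors for up to 2 years. By treatment and later outcome there were 3 placebo animals without tumors (numbers 3, 5 and 6), 7 placebo animals with tumors (1, 2, 4, 7, 8, 9 and 10), 7 tamoxifen animals without tumors (3 to 9) and 3 tamoxifen animals with tumors (1, 2 and 10). Values are log2 expression, with 1 array per animal, given as mean ± SD. Differences are log2 differences ± SE. Whole glands were read, so fewer cells of a type and less RNA per cell cannot be told apart.

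Complex I takes electrons from NADH and complex II takes them from succinate. Both hand them to ubiquinone, from which complex III passes them to cytochrome c. Complexes I and III pump protons across the inner mitochondrial membrane, and the resulting gradient drives ATP synthase or, in brown fat, is released as heat through Ucp1. The mouse mammary gland lies in a fat pad that can hold brown as well as white adipocytes beside the epithelium, and its number 4 pad lies over body wall muscle. Subunits encoded by the mitochondrial genome were not used here. Ndufa4 bears a complex I name but is now counted as a subunit of complex IV, and Ndufa4l2 is its hypoxia-inducible relative.

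The 47 measured subunits varied together from animal to animal. The median Pearson correlation between pairs of them over the 20 arrays was 0.91, where it was -0.0055 over all pairs of the 12499 genes tested. These correlations are given as a description, since arrays scaled together share any array-wide shift. Ndufb5, an accessory subunit of the membrane arm of complex I, had the highest correlation with the mean of the other members, at 0.98. Only Ndufb1 (0.20) and Ndufa4l2 (0.24) stood apart, and the next lowest was Ndufc2 at 0.83. Over all 20 arrays the SD of a member ran from 0.11 for Ndufa7 to 0.28 for Ndufs1.

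The same few animals set the extremes of nearly every subunit. Tamoxifen animal 6 was the lowest of its group for 46 of 47 members, and tamoxifen animal 8 the highest for 43. Placebo animal 10 was the highest of the placebo animals with tumors for 44 members. Among the placebo animals without tumors, animal 6 was lowest for 47 members and animal 5 highest for 44. Thus the widest gap in these genes, between tamoxifen animals 6 and 8, lay between animals of the same treatment and the same outcome.

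**Figure D1:**
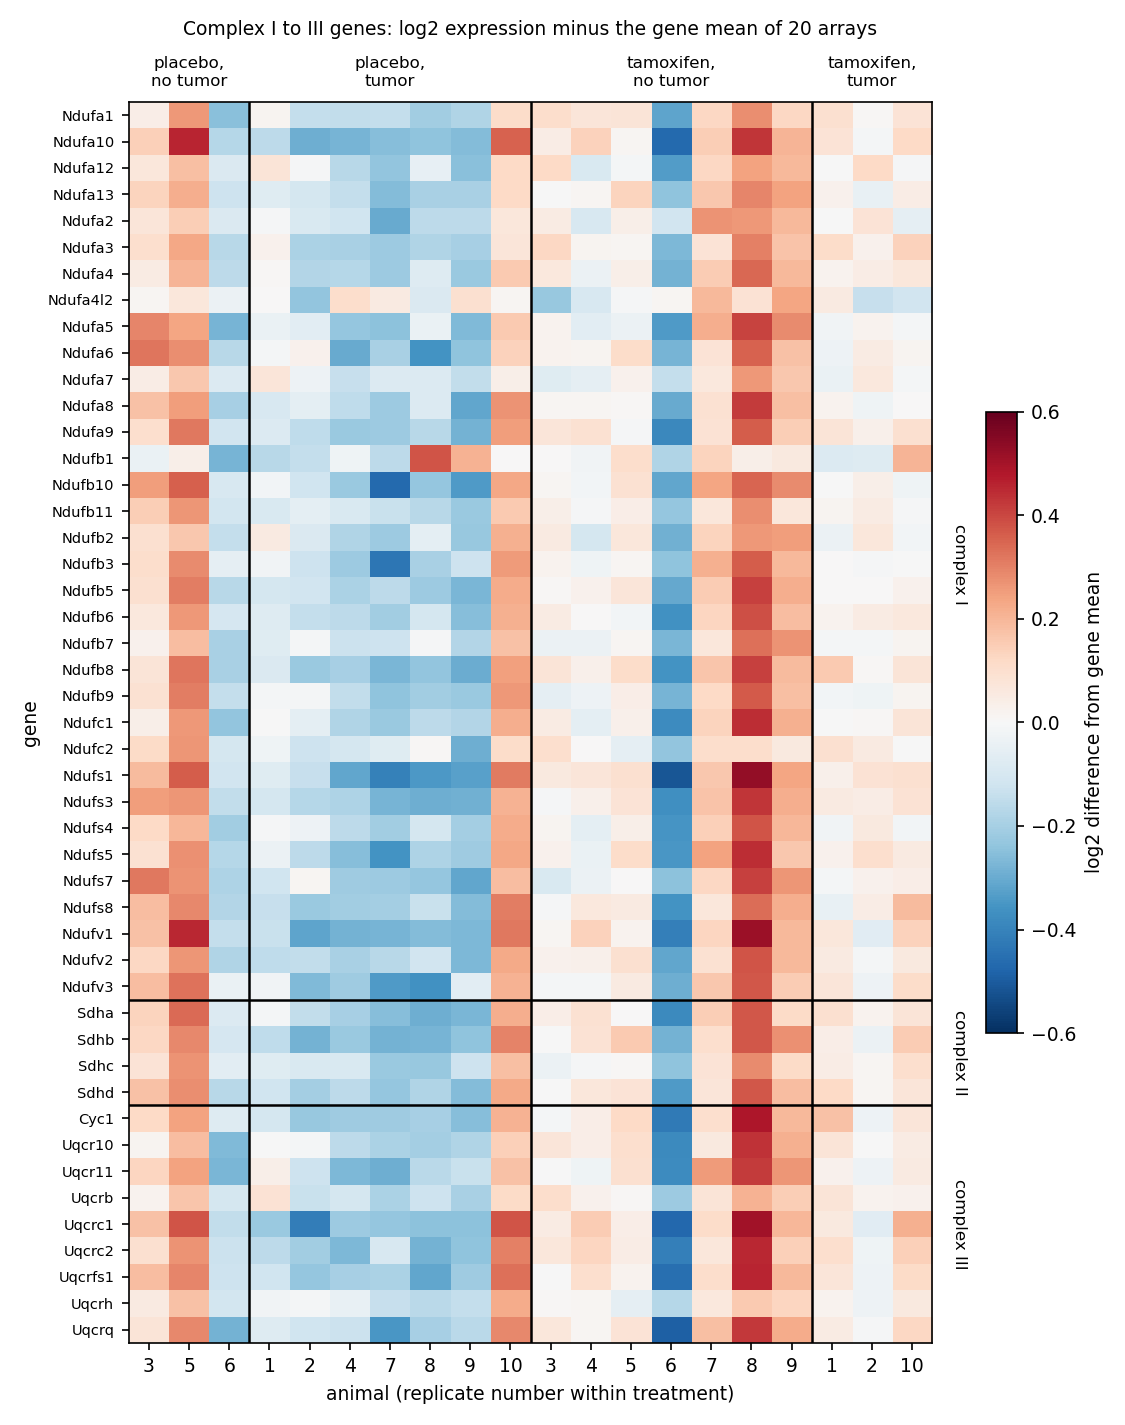
Each row is a subunit gene and each column an animal, grouped by treatment and outcome. Colour is log2 expression minus the gene's mean over 20 arrays. Whole columns are red or blue, with tamoxifen animal 8, placebo animals 5 and 10 high and tamoxifen animal 6 low, while Ndufb1 and Ndufa4l2 follow another pattern.

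Because the members moved together, their promoters were read for the sites of 3 factors known to control nuclear genes of the respiratory chain. The motifs were TGCGCA (the core of the NRF1 site, the same on both strands), CCGGAAG (GABPA, an ETS-type site) and AAGGTCA (the oestrogen-related receptors), searched on both strands of the 250 bases before the gene start. RefSeq promoters on GRCm38.p6 were available for 39 of the 48 members. TGCGCA was found in 8 (20.5%), against 7.36% of 27025 genes and 12.6% of the 9996 tested genes with a promoter. CCGGAAG was found in 6 (15.4%, against 7.83% and 14.6%), and AAGGTCA in 3 (7.69%, against 4.7% and 3.6%). The shares of members thus lay above those of all genes for the 3 motifs, and the share of CCGGAAG lay close to that of the tested genes. A match shows only that the letters are there.

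The sequences below show how such matches lie in subunits of complexes I and II. Sdha (chr13:74350241-74350490, minus strand) and Sdhd (chr9:50603850-50604099, minus strand) held 2 matches to TGCGCA each, and Sdhd also 1 to CCGGAAG. Ndufb6 (chr4:40279422-40279671, minus strand) held TGCGCA and CCGGAAG once each. Ndufs5 (chr4:123718187-123718436, minus strand) held TGCGCA and AAGGTCA once each. Uqcrc1 (chr9:108936398-108936647, plus strand) is shown as a member without a match, as were most of the members with a promoter. Its level followed the others (r = 0.94 with their mean), as did that of Ndufb5 (r = 0.98), which held no match either. Capitals mark the matches, in the reading direction of the gene, so that CTTCCGG and TGACCTT are matches on the opposite strand.
Sdha: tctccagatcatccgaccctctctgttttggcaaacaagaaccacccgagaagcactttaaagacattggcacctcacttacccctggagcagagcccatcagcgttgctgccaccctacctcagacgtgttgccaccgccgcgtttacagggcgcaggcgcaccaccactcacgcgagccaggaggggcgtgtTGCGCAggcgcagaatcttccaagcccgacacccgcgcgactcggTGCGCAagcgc
Sdhd: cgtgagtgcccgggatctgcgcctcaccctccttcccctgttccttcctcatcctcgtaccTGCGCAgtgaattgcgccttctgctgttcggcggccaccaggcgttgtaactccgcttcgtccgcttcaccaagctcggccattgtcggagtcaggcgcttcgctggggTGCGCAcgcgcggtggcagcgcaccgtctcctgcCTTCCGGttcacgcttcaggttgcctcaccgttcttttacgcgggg
Ndufb6: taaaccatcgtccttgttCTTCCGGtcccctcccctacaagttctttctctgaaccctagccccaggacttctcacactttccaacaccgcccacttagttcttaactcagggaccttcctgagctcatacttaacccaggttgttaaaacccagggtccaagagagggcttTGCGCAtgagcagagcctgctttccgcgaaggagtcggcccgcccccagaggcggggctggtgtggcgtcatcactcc
Ndufs5: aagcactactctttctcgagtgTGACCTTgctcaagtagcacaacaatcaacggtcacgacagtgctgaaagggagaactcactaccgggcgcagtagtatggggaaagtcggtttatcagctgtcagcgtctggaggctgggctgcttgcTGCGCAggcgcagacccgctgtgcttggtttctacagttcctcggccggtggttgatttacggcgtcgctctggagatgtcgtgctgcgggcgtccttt
Uqcrc1: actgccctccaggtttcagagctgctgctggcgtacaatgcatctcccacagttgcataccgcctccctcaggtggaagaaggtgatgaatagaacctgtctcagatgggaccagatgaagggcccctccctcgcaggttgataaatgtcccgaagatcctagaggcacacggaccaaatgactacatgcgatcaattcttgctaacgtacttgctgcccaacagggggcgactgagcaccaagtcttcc

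The first contrast sets the 7 tamoxifen animals that stayed free of tumors against the 7 placebo animals that developed them. These groups differ in treatment and outcome at once, so a difference between them cannot be assigned to one or the other. All 47 subunits had higher means in the tamoxifen animals, by a median of 0.19 on the log2 scale (1.14-fold), but none passed the test at an adjusted p of 0.05. The members varied together, so the number that differed in one direction is not a count of independent results, here and in the comparisons below. Of all 12499 genes tested, 579 passed (4.63%), 279 of them higher (2.23%) and 300 lower (2.4%), and their median difference was 0.0099. At an unadjusted p under 0.05 there were 14 members (29.8%), against 20.4% of all genes. In no member were the 7 tamoxifen values all above the 7 placebo values, as was the case in one direction or the other for 1.45% of all genes. For most members the difference between the groups was about the size of the SD between animals of a group.

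Among the core subunits of complex I, Ndufs1, the large iron-sulfur protein of the arm that receives electrons from NADH, gave the widest difference. In the placebo animals without tumors it was at 11.80, 11.97 and 11.49 in animals 3, 5 and 6. Over the 7 placebo animals with tumors it ran from 11.20 through a median of 11.29 to 11.92. Placebo animal 10 thus reached the level of the animals without tumors, while animal 7 lay lowest. The tamoxifen animals without tumors ran from 11.09 (animal 6) through 11.70 to 12.14 (animal 8), which enclosed the whole range of the placebo animals with tumors. The 3 tamoxifen animals with tumors were close together, at 11.63, 11.69 and 11.70. Tamoxifen animals without tumors exceeded placebo animals with tumors by 0.28 ± 0.13 (11.70 ± 0.31 against 11.42 ± 0.25, n = 7 each, adjusted p = 0.239 by limma). The exact permutation test over 3432 arrangements, two-sided, gave p = 0.095 for this gene alone.

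The other core subunits of complex I differed in the same direction. Ndufv1, which binds NADH and flavin, differed by 0.26 ± 0.12 (adjusted p = 0.240). For Ndufs3, of the arm that leads to ubiquinone, the difference was 0.24 ± 0.10 (adjusted p = 0.198). Ndufv2, Ndufs7 and Ndufs8, which carry iron-sulfur clusters, differed by 0.19, 0.19 and 0.18, with adjusted p from 0.253 to 0.346. All 6 measured core subunits were higher on average, by a median of 0.21, and 3 of the 6 had an unadjusted p under 0.05.

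The 28 tested members with a complex I name outside the core, Ndufa4 and Ndufa4l2 among them, were all higher on average too. Most of these are accessory subunits, which surround the core and stabilise it. Their means were higher by a median of 0.17, with 10 at an unadjusted p under 0.05. The smallest adjusted p of any member was that of Ndufa2, at 0.116 (0.19 ± 0.07). Its values ran from 10.76 through 10.94 to 11.13 in the placebo animals with tumors and from 10.95 through 11.11 to 11.33 in the tamoxifen animals without, so that the groups overlapped. Ndufa13, also known as the cell death regulator GRIM-19, differed by 0.21 ± 0.08 (adjusted p = 0.133) and Ndufb10 by 0.26 ± 0.11 (adjusted p = 0.183). Ndufa3, Ndufb8, Ndufv3 and Ndufs5 differed by 0.19 to 0.24, with adjusted p from 0.187 to 0.235. The platform table pairs the chosen probe set of Ndufs5 with a non-coding transcript record, so its values may not be those of the coding transcript. The smallest differences were those of the members that stood apart, 0.0054 ± 0.09 for Ndufb1 and 0.04 ± 0.07 for Ndufa4l2.

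In complex II the flavoprotein Sdha, which oxidises succinate, was at 12.93, 13.14 and 12.71 in placebo animals 3, 5 and 6, which had no tumors. Over the 7 placebo animals with tumors it ran from 12.50 through 12.60 to 13.01, again with animal 10 highest. In the tamoxifen animals without tumors it ran from 12.41 through 12.89 to 13.17, and in those with tumors it was at 12.89, 12.81 and 12.87. Most placebo animals with tumors therefore lay below the other animals, but animal 10 among them, and tamoxifen animal 6, did not keep to that pattern. The difference between the groups of 7 was 0.19 ± 0.10 (adjusted p = 0.280, exact permutation p = 0.103). Sdhb, the iron-sulfur subunit, was at 13.08 ± 0.21 against 12.81 ± 0.21, a difference of 0.27 ± 0.10 (adjusted p = 0.133). For the membrane anchors Sdhd and Sdhc the differences were 0.19 ± 0.10 (adjusted p = 0.257) and 0.12 ± 0.07 (adjusted p = 0.368).

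In complex III, Uqcrc1, the larger of the paired core proteins, was at 12.85, 13.05 and 12.52 in placebo animals 3, 5 and 6, which had no tumors. Over the 7 placebo animals with tumors it ran from 12.26 (animal 2) through 12.44 to 13.05 (animal 10). Apart from animal 10, the 7 placebo animals with tumors were all at or below 12.46. The tamoxifen animals without tumors ran from 12.20 through 12.78 to 13.18, and those with tumors were at 12.73, 12.61 and 12.89. The groups of 7 differed by 0.26 ± 0.13 (adjusted p = 0.272, exact permutation p = 0.101). Uqcrc2, its partner, differed by 0.21 ± 0.11 (adjusted p = 0.288). Cyc1, cytochrome c1, was at 12.84 ± 0.27 against 12.63 ± 0.16 (difference 0.22 ± 0.10, adjusted p = 0.249), and the Rieske iron-sulfur protein Uqcrfs1 at 12.67 ± 0.27 against 12.48 ± 0.21 (0.19 ± 0.11, adjusted p = 0.349). The hinge protein Uqcrh had the smallest difference of the complex, 0.06 ± 0.06. All 9 subunits of complex III were higher on average, by a median of 0.19, and none had an unadjusted p under 0.05.

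**Figure D2:**
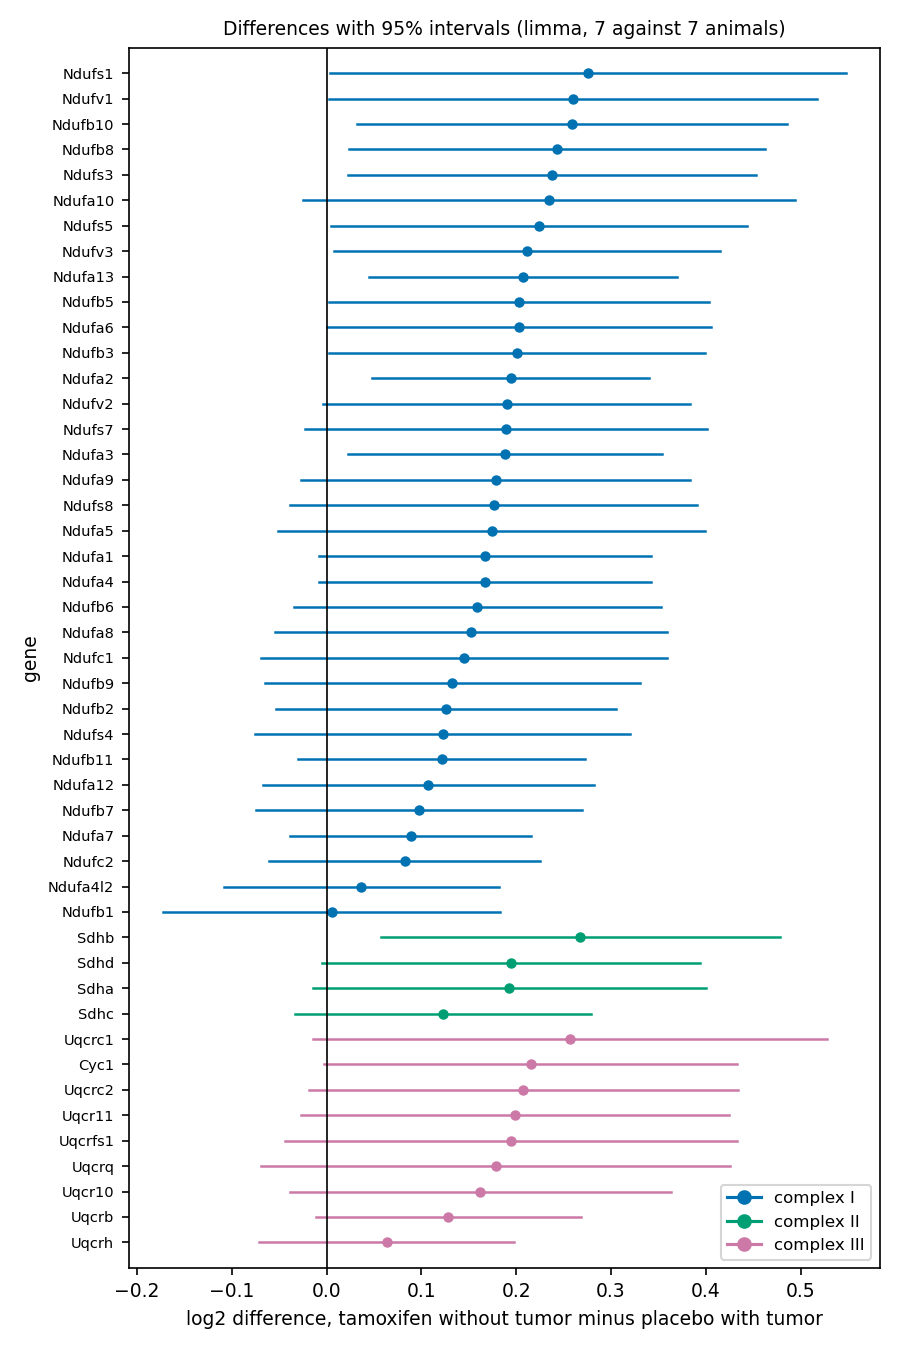
Each point is the log2 difference of a subunit gene between the 7 tumor-free tamoxifen animals and the 7 placebo animals with tumors, and each line its 95% interval from limma without adjustment for the number of genes. All 47 points lie above 0, from 0.0054 for Ndufb1 to 0.28 for Ndufs1, and most intervals cross 0.

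The mean of all 47 members, each centred on its own mean, summarised the animals. It was -0.11 ± 0.15 in the placebo animals with tumors (n = 7), 0.08 ± 0.21 in the placebo animals without (n = 3), 0.06 ± 0.20 in the tamoxifen animals without (n = 7) and 0.04 ± 0.03 in the tamoxifen animals with tumors (n = 3). It ranged from -0.31 in tamoxifen animal 6 to 0.35 in tamoxifen animal 8. The placebo animals with tumors other than animal 10 were all below 0. Without placebo animal 10 the median difference of the members was 0.24 and Sdhb passed the test (0.34, adjusted p = 0.0253). Without tamoxifen animal 6 the median was 0.25 and Ndufa13 passed (0.26, adjusted p = 0.0497). Without placebo animals 7, 8 and 9, the 3 farthest from the rest on the first principal component of all genes, the median was 0.11 and no member passed.

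**Figure D3:**
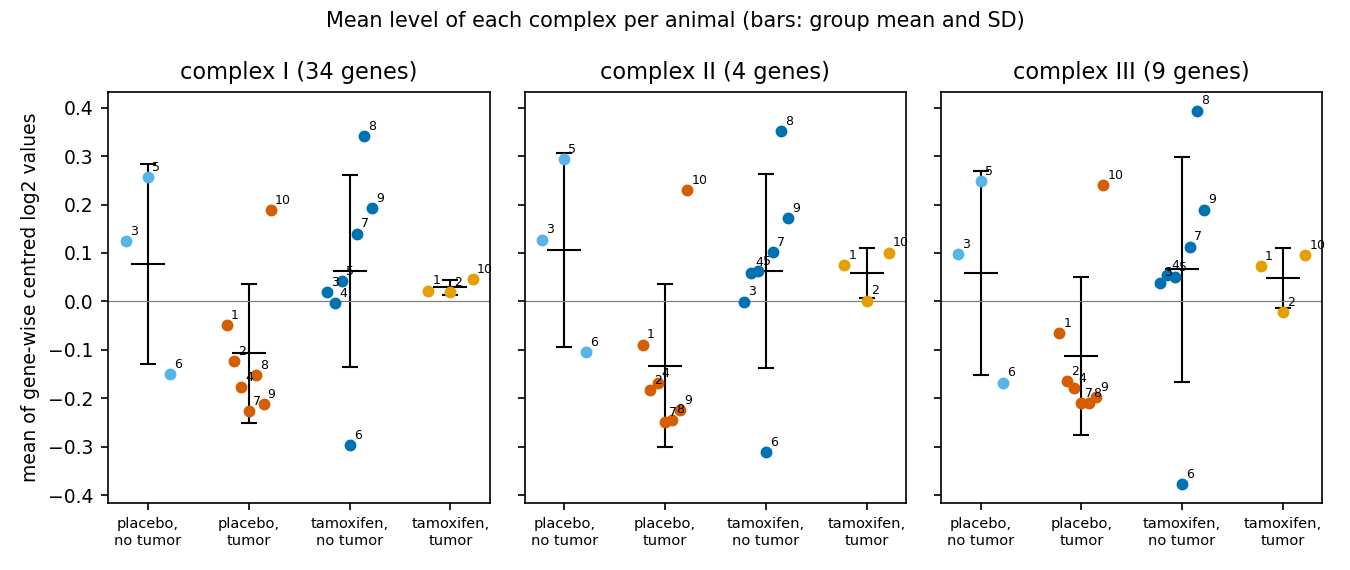
Points are animals, numbered within treatment, and the value is the average of log2 expression, centred gene by gene, over the subunits of complex I, II or III. Horizontal bars are group means and vertical bars SD. The 3 panels are alike, with placebo animal 10 above the other placebo animals with tumors and tamoxifen animal 6 below all others.

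Within the placebo animals, the 7 with tumors were compared with the 3 without. Means were lower with tumors for 46 of 47 members, by a median of 0.19 on the log2 scale, and none passed the test, as did 1 of all genes tested (0.008%). At an unadjusted p under 0.05 there were 6 members (12.8%), against 14.1% of all genes. The smallest adjusted p was 0.286, for Ndufv3 (-0.31 ± 0.13), followed by Ndufb10 (-0.34 ± 0.14, adjusted p = 0.290) and Ndufa6 (-0.28 ± 0.13, adjusted p = 0.324). Ndufv1 and Ndufs3 were at -0.34 and -0.28, and Sdha and Sdhb at -0.27 each, with adjusted p from 0.351 to 0.358. Ndufs7 (-0.26), Ndufb11 (-0.19) and Ndufs1 (-0.33) had adjusted p from 0.374 to 0.381. For complex III, Uqcrc1 was at -0.31, Cyc1 at -0.24 and Uqcrfs1 at -0.25 (adjusted p from 0.413 to 0.446). The exception to the direction was Ndufb1. The member median was -0.10 without placebo animal 5 and -0.31 without placebo animal 6, both among the 3 without tumors, and 60 of all genes passed without placebo animal 10.

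Within the tamoxifen animals, the 3 with tumors and the 7 without were nearer to each other. The median difference of the members was -0.02, as was that of all genes (-0.02), and no member passed the test or had an unadjusted p under 0.05 (all genes 0.008% and 2.1%). The member with the smallest p was Ndufa4l2, at -0.10 ± 0.09. Ndufs1 differed by -0.02, with a 95% interval from -0.37 to 0.33, Sdha by 0.0085 (-0.26 to 0.28), and Uqcrc1 by -0.02 (-0.37 to 0.33). The intervals of Ndufs1 and Uqcrc1 include the differences seen within the placebo animals, while that of Sdha ends just short of its own. The values of Cyc1, Uqcrfs1 and Sdhb were 0.0009, -0.0084 and -0.05. Ndufa2, Ndufa13, Ndufb3, Ndufb10, Ndufb5, Ndufa5, Uqcr11, Ndufa8 and Ndufb7 lay between -0.09 and -0.05, all with an adjusted p of 1.

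The interaction asked whether the difference by outcome itself differed between treatments. It was above 0 for 45 of 47 members, by a median of 0.17, and no member passed (all genes 0.0%). No member had an unadjusted p under 0.05, against 4.52% of all genes, and the smallest adjusted p was 0.938. Ndufv3 (0.30 ± 0.18), Ndufc2 (0.20 ± 0.12) and Sdha (0.28 ± 0.18) had the smallest p. Ndufs1 was at 0.31 with an interval from -0.19 to 0.81, and Uqcrc1 at 0.29 (-0.20 to 0.79). Cyc1, Uqcrfs1 and Sdhb were at 0.24, 0.24 and 0.22. Sdhc (0.21), Sdhd (0.23), Ndufa3 (0.21), Ndufs3 (0.26), Ndufa9 (0.24) and Ndufv1 (0.30) completed the smallest p values. A difference in outcome effect between the treatments was therefore not detectable in these genes with 3 animals in each of the smaller groups. The median ran from 0.07 without placebo animal 5 to 0.28 without placebo animal 6.

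Treatment was compared within each outcome. Among animals without tumors (7 tamoxifen, 3 placebo), 19 members were higher and 28 lower with tamoxifen, the median was -0.02, and no member passed or had an unadjusted p under 0.05 (all genes 0.064% and 5.26%). Ndufb1 (0.11 ± 0.11), Ndufc2 (-0.08 ± 0.09) and Uqcr10 (0.10 ± 0.12) had the smallest p. Sdha (-0.08), Ndufs1 (-0.06), Uqcrc1 (-0.05), Cyc1 (-0.02), Uqcrfs1 (-0.06) and Sdhb (-0.0022) were all near 0. Ndufv3, Ndufb11, Sdhc, Ndufa6, Ndufb10 and Ndufs7 lay between -0.09 and -0.06. All had an adjusted p of 0.999. For Ndufs1 the 95% interval ran from -0.41 to 0.30.

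Among animals with tumors (3 tamoxifen, 7 placebo), 46 of 47 members were higher with tamoxifen, by a median of 0.15, and none passed (all genes 0.0%). Ndufa3 had an unadjusted p of 0.0461 (0.22 ± 0.10, adjusted p = 0.703), and it was the single such member (2.13%, against 7.0% of all genes). Ndufb8 (0.23), Sdhb (0.22), Ndufs3 (0.22), Sdhd (0.20), Cyc1 (0.22), Ndufv3 (0.20), Sdha (0.20), Ndufs1 (0.26), Ndufa9 (0.19), Uqcrc1 (0.24) and Uqcrfs1 (0.19) had adjusted p from 0.725 to 0.787. These 7 placebo animals also enter the contrasts above, so the sets of differences share them.

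The series compared outcome over all 20 animals as well, 10 with tumors and 10 without. Means were lower with tumors for 46 of 47 members, by a median of 0.14 on the log2 scale, and none passed, against 29 of all genes (0.232%). An unadjusted p under 0.05 was found for 9 members (19.1%, against 16.5% of all genes). The smallest adjusted p was 0.200, for Ndufb10 (-0.23 ± 0.09), and Ndufa13 (-0.17 ± 0.06), Ndufa2 (-0.15 ± 0.06) and Sdhb (-0.20 ± 0.09) followed with 0.205 to 0.244. Ndufb3 (-0.18), Ndufa6 (-0.18), Ndufv3 (-0.18), Ndufs3 (-0.18), Ndufv1 (-0.22) and Ndufb5 (-0.16) had adjusted p from 0.264 to 0.306. Ndufs1 was at -0.22, Sdha at -0.16, Uqcrc1 at -0.20, Cyc1 at -0.16 and Uqcrfs1 at -0.16 (adjusted p from 0.335 to 0.418).

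With the 10 tamoxifen animals set against the 10 placebo animals, all 47 members were higher on average, by a median of 0.12, and none passed, against 1 of all genes (0.008%). One member (2.13%), Ndufa3, had an unadjusted p under 0.05 (0.14 ± 0.07, adjusted p = 0.355), against 13.9% of all genes. Ndufa2 (0.13), Ndufb8 (0.17), Sdhb (0.17), Ndufa1 (0.13), Ndufa13 (0.13), Ndufs5 (0.16), Ndufa4 (0.12), Uqcr10 (0.13) and Uqcrb (0.09) came next, with adjusted p from 0.360 to 0.456. Ndufs1 was at 0.17, Sdha at 0.12, Uqcrc1 at 0.16, Cyc1 at 0.14 and Uqcrfs1 at 0.12 (adjusted p from 0.481 to 0.620). In neither comparison of 10 against 10 did the values of any member separate the groups, as they did for 0.032% of genes by outcome and 0.016% by treatment. Single animals moved the count of all genes that passed, from 1 (without placebo animal 5, among others) to 118 (without tamoxifen animal 1) by outcome, and from 0 (without placebo animal 2, among others) to 110 (without placebo animal 6) by treatment.

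**Figure D4:**
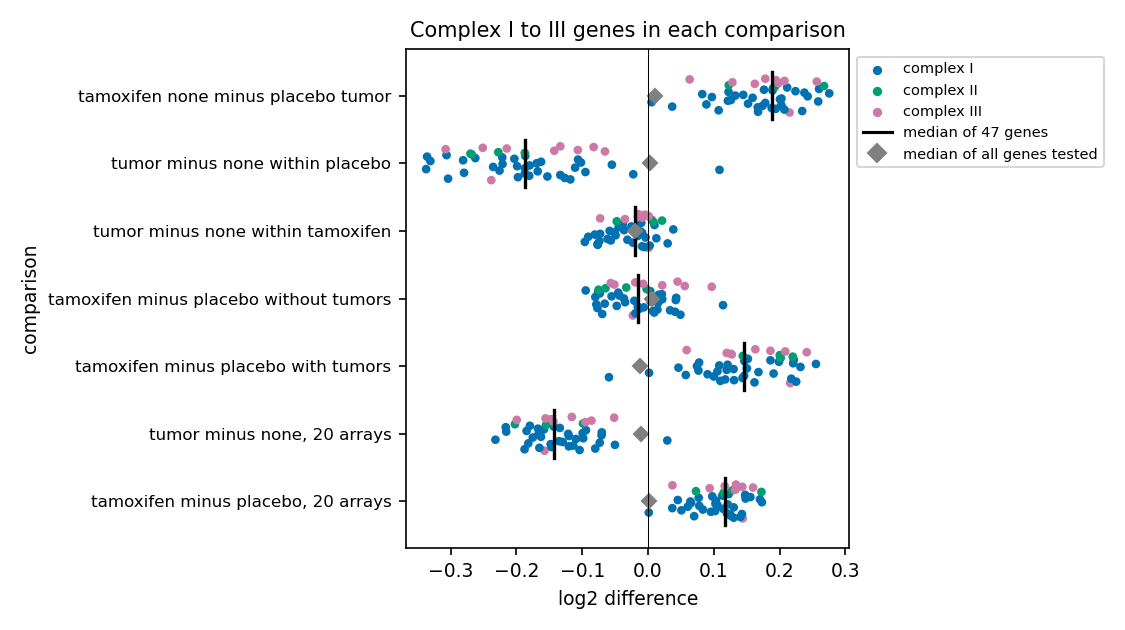
Points are the log2 differences of the 47 subunits in 7 comparisons, coloured by complex. Black bars are their medians and grey diamonds the medians of all 12499 genes tested. All members, or all but 1, lie to one side of 0 where the placebo animals with tumors are one of the groups or most of one, with medians of 0.19, -0.19, 0.15, -0.14 and 0.12, and straddle 0 in the others.

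Other genes of the same pathways were compared between the same groups. All 8 tested subunits of complex IV, which passes electrons to oxygen, were higher on average in the tamoxifen animals without tumors than in the placebo animals with tumors, by a median of 0.13, and none passed. Cox5b (0.19), Cox8a (0.14), Cox6c (0.13) and Cox7a2 (0.13) had the smallest p (adjusted from 0.220 to 0.311). Of the 15 subunits of ATP synthase 12 were higher and none passed, with Atp5l at 0.20 and Atp5h at 0.15 but Atp5g1, a subunit of the membrane ring, at -0.33 (adjusted p from 0.108 to 0.206). The 4 named by rank included Atp5pb, at 0.14.

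The citric acid cycle feeds complexes I and II. All 11 of its tested enzymes were higher on average, by a median of 0.28, 8 with an unadjusted p under 0.05 and none past the adjusted threshold. Mdh2 (0.20) and Fh1 (0.34), which act after complex II in the cycle, and Suclg1 (0.32) and Idh3g (0.29), which act before it, had adjusted p from 0.122 to 0.184. None of 22 assembly factors passed, of which 18 were higher, with Foxred1 (0.29), Uqcc1 (0.32), Sdhaf4 (0.14) and Sdhaf1 (0.13) first. Nor did any of 20 mitochondrial ribosomal proteins, where 17 were higher and Mrpl9 (0.17), Mrps9 (0.13), Mrpl20 (0.17) and Mrps27 (0.15) led. Of 9 regulators of mitochondrial biogenesis 8 were higher and none passed, and the oestrogen-related receptor Esrra (0.23), the mitochondrial RNA polymerase Polrmt (0.20), Tfam (0.14) and Ppargc1b (0.26) led (adjusted p from 0.209 to 0.424). Over all genes tested, 53.8% were higher.

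Among the muscle-type isoforms of complex IV, Cox6a2 rose (0.40 ± 0.10, adjusted p = 0.0288), while Cox7a1 (0.87 ± 0.35, adjusted p = 0.160) and Cox8b (0.47 ± 0.19, adjusted p = 0.166), which brown fat also uses, did not pass. Over the 20 animals the mean of complexes I to III followed that of complex IV (r = 0.99), the citric acid cycle (0.95), the assembly factors (0.91), ATP synthase (0.88) and the mitochondrial ribosome (0.86). These likenesses are a description over arrays that share their scaling.

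Markers of other cells differed between the same groups. All 14 tested skeletal muscle genes were higher on average in the tamoxifen animals without tumors, and 9 passed the test. Among the 9 were Acta1, skeletal actin (3.26 ± 0.71, adjusted p = 0.0141), and Ckm, muscle creatine kinase (2.12, adjusted p = 0.0343). The muscle list mean ran from -0.10 to 3.26 in them and from -1.42 to 0.48 in the placebo animals with tumors. All 15 epithelial genes were lower and 10 passed, with Epcam at -1.31 and Krt18 at -0.95 (adjusted p = 0.00388 and 0.0139). The epithelial list mean ran from -0.69 to 0.20 against 0.09 to 1.24. Of 9 milk genes 8 were lower and 7 passed, with the casein Csn2 at -6.89 (adjusted p = 0.000358). All 7 T cell genes were higher and 6 passed, with Cd3e at 0.46 (adjusted p = 0.00506).

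Brown adipocyte genes varied between glands. Ucp1, the uncoupling protein of brown fat, ran from 10.43 to 13.86 over the 20 arrays and Cidea, a lipid droplet protein of brown fat, from 12.35 to 13.66, while Zic1, a marker of classical brown depots, stayed between 4.10 and 4.32, below the filter on all arrays. None of 7 tested brown adipocyte genes passed in the contrast of tamoxifen animals without tumors and placebo animals with tumors, where 6 were higher. Cidea was at 13.12 ± 0.34 against 12.70 ± 0.32 (difference 0.42 ± 0.16, adjusted p = 0.132) and Ucp1 at 13.08 ± 0.70 against 12.63 ± 1.06 (0.45 ± 0.39, adjusted p = 0.552). The mean of the list was 0.50 ± 0.61 in placebo animals without tumors, -0.33 ± 0.51 in those with, 0.08 ± 0.61 in tamoxifen animals without and 0.08 ± 0.15 in those with. Adipoq, an adipocyte hormone, differed by 0.05 (adjusted p = 0.678).

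The subunits varied with the brown adipocyte gene Cidea across animals. The pairs given here and below were chosen after the list means had been seen, so their p-values do not stand as an independent test. Uqcrc1 and Cidea had a Pearson r of 0.92 and a Spearman rho of 0.91 (n = 20, adjusted permutation p = 4.5e-05 for r), with r = 0.94 within placebo and 0.90 within tamoxifen animals, and r = 0.92 without the 2 animals farthest from the median of Cidea. Sdha and Cidea had r = 0.93 and rho = 0.89, and Ndufs1 and Cidea r = 0.89 and rho = 0.84, with the same adjusted p for r. The relation with Ucp1 was less even. Uqcrc1 and Ucp1 had r = 0.80 and rho = 0.94, with r = 0.75 within placebo and 0.92 within tamoxifen animals. For Sdha and Ucp1 r was 0.62 and rho 0.85 (r = 0.46 within placebo and 0.89 within tamoxifen), and for Ndufs1 and Ucp1 r was 0.58 and rho 0.82 (0.42 and 0.86).

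Relations with the muscle genes and Adipoq did not pass the test, and Adipoq varied little, from 13.79 to 14.21 over the 20 arrays. Uqcrc1 and Ckm had r = 0.25 and rho = 0.24 (adjusted p = 0.360 for r), with r = -0.01 within placebo and 0.12 within tamoxifen animals, and the subunits' r with Acta1 and Adipoq ran from 0.18 to 0.36 (adjusted p from 0.212 to 0.437). With Epcam r ran from -0.42 to -0.52 (adjusted p from 0.0504 to 0.123), negative within placebo animals (-0.61 to -0.78) and positive within tamoxifen animals (0.30 to 0.42). In all, 18 relations were computed, chosen after the list means had been seen, with 100000 resamples, and the unadjusted p of 1e-05 behind the smallest values is the smallest these can give.

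As a description over the 20 arrays, the mean of the members had r = 0.82 with the brown adipocyte list (0.85 within placebo and 0.79 within tamoxifen animals). With the skeletal muscle list r was 0.31 (-0.05 and 0.27), with the epithelial list -0.42 (-0.65 and 0.43), and with the fibroblast and matrix list -0.57 (-0.52 and -0.58). With the macrophage list r was -0.37 (-0.03 and -0.76), and with the T cell list 0.01 (0.35 and -0.83). The part of these cells in the levels of the subunits was not tested.

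**Figure D5:**
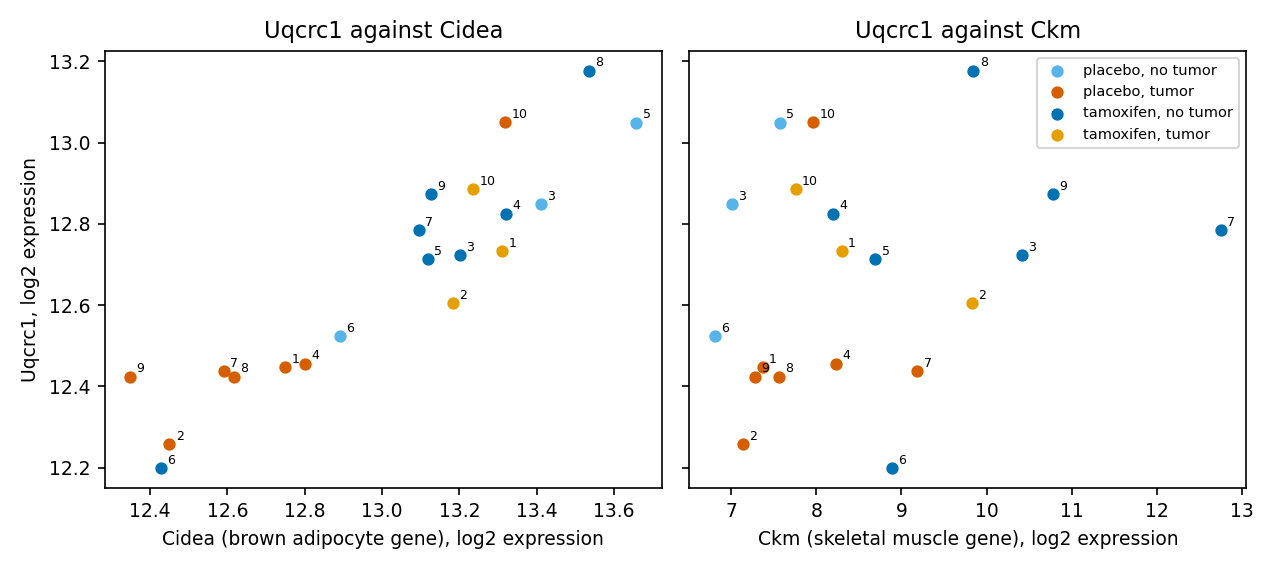
Log2 expression of Uqcrc1 is plotted against that of Cidea (left) and Ckm (right), 1 point per animal, numbered within treatment. Uqcrc1 rises with Cidea within placebo and within tamoxifen animals, and shows no such course with Ckm. Tamoxifen animal 6 and placebo animal 2 are at the low end, and tamoxifen animal 8 and placebo animal 5 at the high end.

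Fits with these list means as covariates gave the differences of the members at equal list means. The list means themselves differed between the groups on average, so these fits do not measure how far the lists moved with the subunits. Between the groups of 7, the median difference of the members was 0.07 with the brown adipocyte mean as covariate, 0.11 with the skeletal muscle mean, 0.14 with the epithelial mean and 0.02 with the muscle and brown adipocyte means together, a fit added after the others were seen, in place of 0.19. For outcome within placebo animals it was 0.02 with the brown adipocyte mean, -0.20 with the skeletal muscle mean and -0.15 with the epithelial mean, in place of -0.19. No member passed in any of these fits, and none had passed without a covariate, so this result tells nothing about the lists. Between the groups of 7, 549 of all genes passed with the brown adipocyte mean and 453 with the skeletal muscle mean. With these means together 492 passed, and with the epithelial mean only 7. Within placebo animals 1 gene passed with the brown adipocyte mean, 1 with the skeletal muscle mean and 0 with the epithelial mean. Where so few of all genes passed, the absence of members says little about them. The brown adipocyte list holds Ppargc1a and Cox7a1, which also stand in the mitochondrial lists, and whether brown adipocytes in the glands account for the levels of the subunits was not tested.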

How the data were processed

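The deposited values are log2 expression per probe set of an Affymetrix mouse array, for which the submitters' processing notes name RMA. No version of it is given. Over 45101 probe sets the medians ran from 6.82 to 6.89 and correlations between arrays from 0.977 to 0.997, with no 2 arrays identical. The number of arrays limits the precision.

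Symbols came from the platform table, updated by Entrez ID (34754 of 34958 probe sets with a single symbol). Probe sets with several symbols (932) or none (9211) were left out, 9 of several symbols naming a member. Of the genes, 12499 exceeded 6.85 on at least 3 arrays and were tested.

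Genes were fitted with limma 3.58.1 (functions lmFit and eBayes, R 4.3.3) in a 4-group model, or as 2 groups of 10, two-sided, with Benjamini-Hochberg adjustment over all 12499 genes and a threshold of 0.05. The procedure was tested on simulated data, with genes independent of each other and changes larger than the differences of the members. That test does not cover differences of their size or genes that vary together. Permutations used scipy 1.17.1. Animals are separate per the labels, which give each treatment the same replicate numbers. Deviations of same-numbered animals correlated above 0.1 in 4 of 10 pairs, with r from -0.10 to 0.59. This does not settle whether the numbers pair the animals, and they were not taken to do so. Per the labels, animals were assigned to the treatments in turn as they came of age, which could order the numbers in time, but the labels do not say that equal numbers share a date or batch.

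The members and lists were chosen with earlier results of these data known. Named members are Ndufs1, Sdha, Uqcrc1, Cyc1, Uqcrfs1 and Sdhb, then those past the threshold, or the smallest p until 10 were named. From each pathway list up to 4 genes were named by moderated t, and of the marker lists Ckm, Acta1, Ucp1, Cidea, Adipoq, Epcam, Krt18, Csn2 and Cd3e. Cox7a1, Cox8b and Zic1 were named after their values were seen. Alternatives covered scaling, filter, probe set, variance model, array weights, blocks, covariates and left-out animals.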

Additional observations from a re-analysis of the deposited data

Results flagged for a closer look

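Placebo animal 10 stood above the 6 other placebo animals with tumors by a gap that was a large share of the group's whole range (Dixon's ratio above its critical value for 7 samples) in 11 of the named members. Its values were 12.98 for Cyc1, 12.12 for Ndufa9, 12.20 for Ndufb5, 13.07 for Ndufb8, 12.45 for Ndufs3, 12.73 for Ndufv1, 13.28 for Sdhb, 12.20 for Sdhc, 13.04 for Sdhd, 13.05 for Uqcrc1 and 12.94 for Uqcrfs1. The next highest animal was at 12.67 for Cyc1, 12.83 for Sdhb and 12.46 for Uqcrc1. The same held for its mean over complexes I to III (0.20, where the next animal was at -0.06), over complex I (0.19), complex II (0.23) and complex III (0.24). Its Cidea value, 13.32, and its Ucp1 value, 13.86, were the highest of that group too. In the tamoxifen animals without tumors, animal 6 stood below the others for Ndufa1, at 12.72, where the next lowest was at 13.11. In all 76 groups of 7 were tested and 16 were marked. Chance marks about 1 group in 20, and the members are not independent, since they varied together.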

How the results depend on the processing

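No member was called in any of the 8 comparisons as reported. Across 36 or 37 alternatives per comparison, this count stayed at 0 in 285 of 290 fits, and no called result changed direction. Of 4134 values of single named members, 3995 kept their sign and stayed uncalled, 96 changed sign while uncalled on both sides, and 43 passed the test, 41 of them under the block described next. This block was the replicate number, which the labels do not show to pair the animals. With it, 43 members were called higher in tamoxifen animals without tumors than in placebo animals with tumors (median 0.38, with 1647 of all genes called). With the same block 33 were called lower with tumors within placebo animals (median -0.56, 602 genes), and 42 lower with tumors over 20 arrays (median -0.38, 1426 genes). Each number holds a single placebo animal. The block fit thus compares placebo animals with and without tumors only by way of the tamoxifen animals of equal number. In the block fit over 20 arrays only the 4 numbers whose animals differed in outcome carry outcome. In each of these the animal with tumors had placebo and the other tamoxifen. Outcome and treatment cannot be told apart there, and the differences over 20 arrays repeat those of the first contrast with the sign reversed. Of placebo animals 3, and of tamoxifen animals 4, matched their own number best, a hint from the data only. When each animal was left out in turn, the count in the contrast of tamoxifen without tumors and placebo with tumors ran from 0 to 1 (Sdhb without placebo animal 10, Ndufa13 without tamoxifen animal 6) and the member median from 0.13 (without tamoxifen animal 8) to 0.25. In that contrast 295 (without tamoxifen animal 4) to 846 (without tamoxifen animal 8) of all genes were called, 141 without placebo animals 7, 8 and 9, and 7 with the epithelial mean as covariate. In the other comparisons no member was called, whichever animal was left out. The member median then ran from -0.31 to -0.10 by outcome within placebo animals (0 to 60 of all genes called) and from -0.10 to 0.02 within tamoxifen animals (0 to 7). It ran from 0.07 to 0.28 for the interaction (0 to 3), from -0.11 to 0.07 by treatment without tumors (2 to 17) and from 0.12 to 0.19 with tumors (0 to 1). Over 20 arrays it ran from -0.19 to -0.10 by outcome (1 to 118) and from 0.08 to 0.16 by treatment (0 to 110). The cause of these shifts was not tested.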

Other observations

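Probe sets that name a member together with another gene were left out of the comparisons. The 2 shared by Ndufb4 and its near copies Ndufb4b and Ndufb4c had means of 11.5 and 11.6, and their values in tamoxifen animals without tumors exceeded those in placebo animals with tumors by 0.21 each. The probe sets of Ndufs5 with its pseudogene, of Ndufa11 with Ndufa11b and of Ndufs6 with Ndufs6b differed by 0.22, 0.18 and 0.13, and these 5 followed the mean of the members over the 20 arrays (r from 0.81 to 0.96). The other 4 differed by less. A second probe set of Ndufa11 with Ndufa11b was at 0.02 (r = 0.04), those of Ndufa13 with Yjefn3 at 0.03 (r = 0.39) and -0.02 (r = 0.55), and that of Ndufb2 with Adck2 at 0.05 (r = 0.87). No test was made of any of the 9.

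Of the 51 other single-symbol probe sets of the members, 9 did not pass the filter and were not tested. Of the 42 that passed, from 27 members, 41 had the sign of the chosen probe set in the contrast of tamoxifen animals without tumors and placebo animals with tumors, 41 by outcome over 20 arrays and 39 by treatment, and none passed the test.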
